A study of Mus musculus with 4 samples.

Results

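The genes described here are 10 genes of GABAergic interneurons, the inhibitory neurons that release gamma-aminobutyric acid (GABA): Gad1, Gad2, Slc32a1, Sst, Pvalb, Npy, Calb2, Reln, Htr3a and Erbb4. They were chosen by name for their function, 10 of 21938 protein-coding genes on the assembled chromosomes, and every deposited peak that overlaps the gene, or the 10 kb before or after it, was taken with no minimum on its strength. Binding of Foxr2 was profiled by CUT&RUN, in which a nuclease is tethered to an antibody and releases the bound DNA for sequencing. The antibody used recognises V5, a short peptide tag fused to FOXR2. The samples were 2 replicates of the Foxr2 p53LOF line and 2 of the V5 control line, all of mouse strain C57BL/6J, with 500000 cells per sample.

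Both lines came from mice made by in utero electroporation (IUE), in which DNA is introduced into the embryonic brain. In the Foxr2 p53LOF model, tagged FOXR2 was driven by the ubiquitous CAG promoter from a vector that integrates into the genome, together with a CRISPR guide against p53, and the label gives the genotype as FOXR2 P53LoF. The control line carries H3.3G34R, lacks the tag and belongs to another IUE model, so the tag and the tumour model differ between the groups at the same time and their parts in any difference cannot be told apart. The FOXR2 measured is therefore the protein made from the vector, in a cultured line and not in interneurons of the brain. The labels do not say that replicates were separate cultures, so the spread between them may be technical. A peak list shows where a protein was bound and not which genes were expressed, so the cell type of the lines could not be checked against their markers here.

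Interneurons make GABA from glutamate with glutamate decarboxylase, load it into vesicles through the vesicular inhibitory amino acid transporter, and are sorted into subtypes by the peptides, calcium-binding proteins and receptors they carry. Most cortical interneurons are born in the ganglionic eminences of the ventral forebrain, the region from which the Foxr2 p53LOF model was made. FOXR2, a transcription factor of the forkhead family, is activated as an oncogene in some embryonal tumours of the nervous system.

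The sequences that carry the main contrast among the 10 genes are the starts of Gad1 and Gad2, at which no peak was called, the start of Erbb4, which lay under a peak of both replicates, and the stretches away from starts that passed the filter of the methods in both replicates. Start sequences are the 250 bases before the gene start on the strand of the gene, and the others are 300 bases on the plus strand around the summit in Foxr2 p53LOF replicate 2, all from the RefSeq assembly GRCm38.p6 (the mm10 build). Capitals mark, on either strand, any of 6 short letter strings: CCGGAA of ETS factors, AGGAAG of the same family, TGTTTAC of forkhead factors, the E-box letters CACGTG, the SOX letters CATTGT and the homeobox letters TAATTA. Both ETS strings end in or hold the same core, and no string is part of another.
Gad1 start, chr2:70552822-70553071, plus strand: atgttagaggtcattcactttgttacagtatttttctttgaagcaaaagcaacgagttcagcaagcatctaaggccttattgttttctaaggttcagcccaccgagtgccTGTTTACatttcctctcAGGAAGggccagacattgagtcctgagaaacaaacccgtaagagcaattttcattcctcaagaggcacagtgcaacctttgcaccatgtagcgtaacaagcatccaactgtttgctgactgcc
Gad2 start, chr2:22621955-22622204, plus strand: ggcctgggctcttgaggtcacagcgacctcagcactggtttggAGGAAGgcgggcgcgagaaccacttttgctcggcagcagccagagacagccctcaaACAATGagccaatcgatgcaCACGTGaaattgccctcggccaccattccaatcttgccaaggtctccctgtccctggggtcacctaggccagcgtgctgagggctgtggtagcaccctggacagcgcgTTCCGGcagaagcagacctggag
Erbb4 start, chr1:69108060-69108309, minus strand: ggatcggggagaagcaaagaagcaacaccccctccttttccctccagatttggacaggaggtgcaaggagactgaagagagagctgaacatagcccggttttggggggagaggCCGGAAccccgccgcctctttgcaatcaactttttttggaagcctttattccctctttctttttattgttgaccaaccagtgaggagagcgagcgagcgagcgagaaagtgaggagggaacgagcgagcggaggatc
Erbb4 intron 3, chr1:68466925-68467224: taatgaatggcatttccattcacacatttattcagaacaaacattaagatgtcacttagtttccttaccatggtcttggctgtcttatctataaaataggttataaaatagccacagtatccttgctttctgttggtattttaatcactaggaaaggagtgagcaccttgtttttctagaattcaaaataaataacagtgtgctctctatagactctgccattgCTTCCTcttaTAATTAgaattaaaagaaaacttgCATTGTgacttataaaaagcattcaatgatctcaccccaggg
Pvalb downstream, chr15:78181499-78181798: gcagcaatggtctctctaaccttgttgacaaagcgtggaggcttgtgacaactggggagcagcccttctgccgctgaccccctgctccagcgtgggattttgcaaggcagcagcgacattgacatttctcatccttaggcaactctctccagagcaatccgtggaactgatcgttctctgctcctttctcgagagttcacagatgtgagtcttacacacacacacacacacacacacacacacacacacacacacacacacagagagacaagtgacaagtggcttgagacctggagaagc
Reln intron 22, chr5:22012850-22013149: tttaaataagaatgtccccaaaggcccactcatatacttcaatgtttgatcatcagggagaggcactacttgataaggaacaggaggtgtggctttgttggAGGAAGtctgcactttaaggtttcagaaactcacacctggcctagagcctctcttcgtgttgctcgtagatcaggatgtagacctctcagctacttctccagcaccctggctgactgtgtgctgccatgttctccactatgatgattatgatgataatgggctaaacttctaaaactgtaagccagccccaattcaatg

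The Gad1 start holds the forkhead letters TGTTTAC and the ETS letters AGGAAG once each, and 2.67% and 29.0% of all gene starts hold them in the same 250 bases. The Gad2 start holds both ETS strings, the SOX letters and the E-box once each. Of all gene starts, 29.0% hold AGGAAG and 13.7% hold CCGGAA, while 9.22% hold the SOX letters and 6.53% the E-box. The string CCGGAA also stands once in the Erbb4 start. The intronic Erbb4 stretch holds AGGAAG, the homeobox letters and the SOX letters once each, found in 32.8%, 7.28% and 14.3% of the 300-base windows of all replicate 2 peaks. The Reln stretch holds AGGAAG once, and the Pvalb stretch, which runs through a CA repeat, holds none of the 6 strings. Such matches describe the letters only.

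The Foxr2 p53LOF lists held 31909 and 38580 peaks and the control lists 308 and 124. Fold enrichment sets the fragments at a summit against the background of the same library, with 1 added to each. The background was 1.26 and 2.04 fragments in the Foxr2 p53LOF libraries and 1.69 and 0.642 in the control libraries, as recovered from the folds and p-values. For the main peaks of the set, folds are given below with the exact 95% Poisson interval of their fragments or with the fragments themselves. Such intervals cover counting error only.

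Peaks were called at 6 of the 10 genes in Foxr2 p53LOF replicate 1, where 66.2% of all protein-coding genes had one, and at 6 of 10 in replicate 2, where 66.9% had one. Replicate 1 had peaks at Slc32a1, Sst, Pvalb, Npy, Reln and Erbb4. Replicate 2 had peaks at Slc32a1, Pvalb, Npy, Reln, Htr3a and Erbb4. The control lists had no peak at any of the 10 genes, and in them only 0.524% and 0.260% of all genes had a peak, so that 0 of 10 is close to the background. The groups did not overlap in the number of these genes with a peak (6 and 6 in the Foxr2 p53LOF replicates against 0 and 0, two-sided exact permutation p = 0.333, the smallest that 2 against 2 allows). Either replicate had a peak at 7 of the 10 genes (69.3% of all genes). Gad1, Gad2 and Calb2 had no peak in any library, a pattern shared with 6717 genes (30.6%).

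At 5 of the 10 genes both replicates had a peak (63.8% of all genes), but at Npy the peaks lay at different places. Peaks of the replicates overlapped by at least 1 bp at 4 genes (62.6% of all genes): Slc32a1, Pvalb, Reln and Erbb4. The methods of the study keep peaks with a fold above 6, a −log10 q above 6, a length under 10000 bp and no overlap with a control peak of 10 bp or more. They then keep only stretches that are also open chromatin peaks of the multiome, a step not repeated here. The same 4 genes had overlapping peaks that both passed this filter, beside 50.0% of all genes. Within 1 kb of a gene's own transcript start, each replicate had a peak at 3 of the 10 genes (53.2% and 54.2% of all genes), and the replicates overlapped there at Erbb4 alone (50.9%). The control replicates had a peak there at 0 of the 10 genes (0.123% and 0.0866% of all genes).

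**Figure D1:**
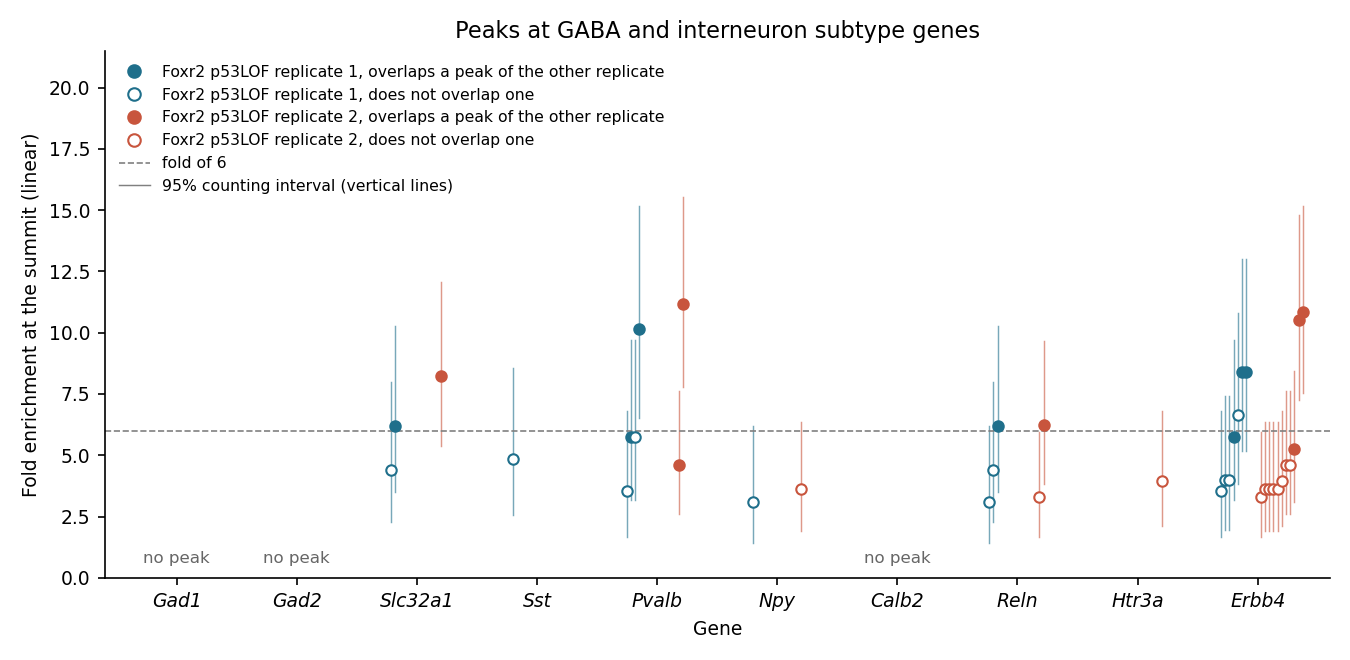
Fold enrichment (linear axis) of every peak at the 10 genes in Foxr2 p53LOF replicate 1 (blue) and replicate 2 (red), with 95% counting intervals as vertical lines. Filled points overlap a peak of the other replicate, the dashed line is the fold of 6 used by the methods, and the highest points are at Pvalb (10.2 and 11.2) and Erbb4 (8.39 and 10.8).

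Glutamate decarboxylase is encoded by Gad1 and Gad2. Gad1, which encodes the larger form, present throughout the cell, lies on chromosome 2 at 70553072 to 70602014 on the plus strand. The peak closest to its start was 43.3 kb away in replicate 1 (fold 4.86) and 43.8 kb away in replicate 2 (fold 4.60), and both lay at the start of the neighbouring gene Erich2. Over all protein-coding genes, 72.8% and 73.8% had a closer peak. The promoter of Gad1, like that of Sst, has under 45% GC in the 300 bases around the gene start. Of genes with such promoters only 15.4% and 16.2% had a peak within 1 kb of a start, so that no peak was usual in this band. Gad1 has 5 annotated starts, and GC was measured at the gene start alone, so the band does not describe the others. Neither control replicate had a peak within 28109 kb of the Gad1 start.

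Gad2 encodes the smaller form, which is concentrated at nerve terminals, and lies on chromosome 2 at 22622205 to 22693874 on the plus strand. The closest peaks were weak and lay upstream in the gene Myo3a, 33.7 kb away in replicate 1 (fold 3.09, 6 fragments) and 43.7 kb away in replicate 2 (fold 3.94, 11 fragments). They did not overlap each other. The Gad2 promoter, with no peak within 1 kb, has 63.0% GC, and 68.9% and 69.7% of genes with promoters of 55 to 65% GC had one. Control replicate 1 had a peak 32.1 kb upstream of Gad2, with a fold of 7.05 from 18 fragments, over a pair of annotated pseudogenes inside Myo3a. The closest peak of Foxr2 p53LOF replicate 1 lay over a pseudogene of the same pair, without overlapping the control peak. Both GABA-synthesising genes were thus without a called peak in 68.9 kb and 91.7 kb of searched sequence, while 73.8% of genes with regions of 30 to 100 kb had a peak in replicate 1 and 74.6% in replicate 2.

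Slc32a1, which encodes the vesicular transporter that loads GABA and glycine into synaptic vesicles, lies on chromosome 2 at 158610767 to 158615748 on the plus strand. Replicate 1 had a peak in its only intron, 2690 bp past the start, with a fold of 4.42 from 9 fragments, and replicate 2 had none there. Both replicates had a peak downstream, overlapping from 158624892 to 158625332, with folds of 6.19 (interval 3.50 to 10.3) and 8.21 (5.38 to 12.1). This stretch lies at the start of another gene, Actr5, which encodes a subunit of the INO80 chromatin remodelling complex and begins at 158624888. The summits lie 9321 and 9208 bp beyond the end of Slc32a1, near the edge of the searched region. With peaks at starts of other genes left out, an alternative chosen after the data were seen, Slc32a1 had a peak in replicate 1 only and the number of genes with overlapping peaks was 3 of 10, against 50.3% of all genes under the same rule.

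The neuropeptide genes had single weak peaks. Sst encodes somatostatin, the marker of a large class of dendrite-targeting interneurons, and lies on chromosome 16 at 23889573 to 23890958 on the minus strand. Its only peak was in replicate 1, 7842 bp upstream of the start from 23898516 to 23898945, with a fold of 4.86 (interval 2.56 to 8.57) from 10 fragments. In replicate 2 the closest peak to the Sst start was 62.3 kb away. A peak in replicate 1 only was the pattern of 524 genes (2.39%).

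Npy encodes neuropeptide Y, which is found in neurogliaform and many somatostatin interneurons, and lies on chromosome 6 at 49822710 to 49829507 on the plus strand. Replicate 1 had a peak 9065 bp upstream with a fold of 3.09 (interval 1.41 to 6.21), from 6 fragments, the fewest at any called summit of that library. Replicate 2 had a peak in the last intron, 6192 bp past the start, with a fold of 3.61 (interval 1.90 to 6.37). No summit at either peptide gene lay within 1 kb of its start.

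Among the calcium-binding proteins, Pvalb and Calb2 differed. Pvalb encodes parvalbumin, the marker of fast-spiking interneurons, and lies on chromosome 15 at 78191114 to 78206400 on the minus strand. It had the highest folds of the 10 genes in both replicates, 10.2 (interval 6.53 to 15.2, 22 fragments) and 11.2 (7.79 to 15.6, 33 fragments), in a stretch from 78180893 to 78182858. The summits lay 15 bp apart and 9450 and 9465 bp beyond the end of Pvalb, in sequence with no annotated gene, and the closest protein-coding start is that of Ift27. The lower fold of this pair ranked at percentile 81.0 of the 24807 overlapping pairs in the genome, with ties given their middle rank.

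A second pair downstream of Pvalb, from 78184617 to 78185729, had folds of 5.74 and 4.60 with summits 521 bp apart. Inside Pvalb, replicate 1 alone had peaks in the first intron, with folds of 3.53 (7 fragments), 187 bp from an annotated alternative start, and 5.74 (12 fragments), 991 bp from a start. The part of the Pvalb region with overlapping peaks was therefore the 3′ flank and not the gene itself. With the gene body alone searched, Pvalb and Slc32a1 both dropped out and overlapping peaks remained at 2 genes, Reln and Erbb4.

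Calb2 encodes calretinin, which marks bipolar and other interneurons, and lies on chromosome 8 at 110137502 to 110168210 on the minus strand. The closest peak to its start was 48.5 kb away in replicate 1 and 48.4 kb away in replicate 2, with folds of 8.39 and 9.20, at the start of Cmtr2, an mRNA cap methyltransferase gene. The promoter of Calb2 is rich in G and C (68% of the 300 bases around the start), and 83.3% of genes with promoters of over 65% GC had a peak within 1 kb of a start in replicate 1. Of the 3 genes of the set with such promoters, Calb2, Npy and Reln, only Reln had a peak there in either replicate, and the replicates overlapped there at none, beside 80.6% of genes in the band.

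**Figure D2:**
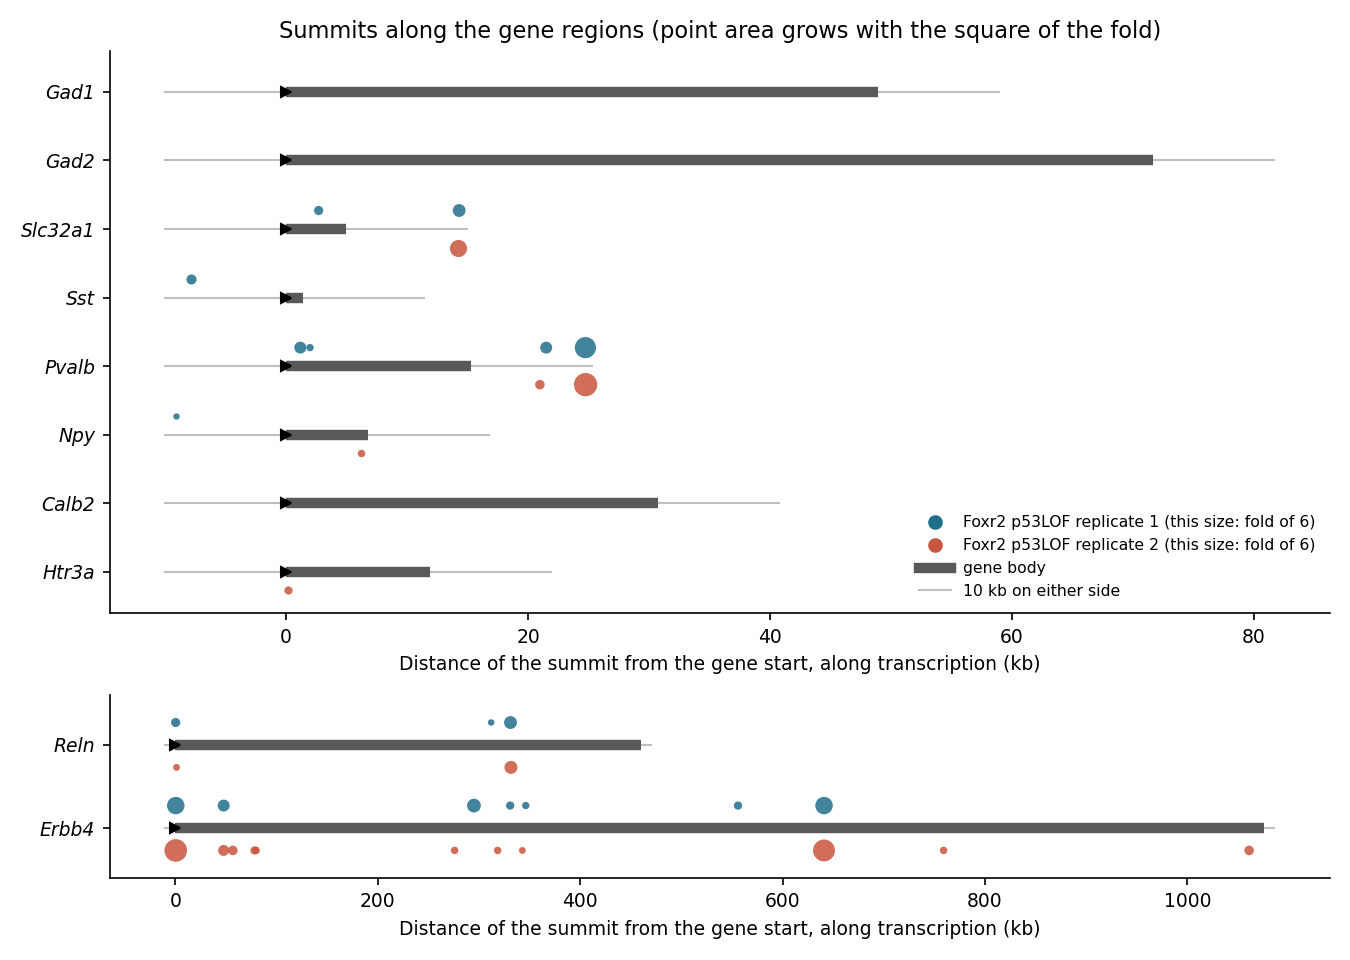
Summits of all peaks along the gene regions, as distance in kb from the gene start in the direction of transcription, with replicate 1 (blue) above and replicate 2 (red) below each gene. Dark bars are gene bodies, thin lines the 10 kb on either side, and larger points have higher folds. The overlapping peaks of Slc32a1 and Pvalb lie in the downstream flank, and those of Reln and Erbb4 inside the gene.

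Reln encodes reelin, a secreted glycoprotein that guides neuronal layering and is made by many interneurons of the outermost cortical layer, and lies on chromosome 5 at 21884454 to 22344702 on the minus strand. Overlapping peaks lay in intron 22, from 22012924 to 22013616, with folds of 6.19 (interval 3.50 to 10.3, 13 fragments) and 6.24 (3.83 to 9.67, 18 fragments). These numbers of fragments are the fewest that pass the fold of 6 in the 2 libraries. When each fold was divided by the level of its chromosome (the median fold of its peaks over that of the library, 1.17 and 1.13 for chromosome 5), the Reln folds became 5.30 and 5.51, under the limit.

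Within 1 kb of the Reln start, but not over it, each replicate had a peak that the other did not meet. In replicate 1 it lay over the coding part of the first exon with a fold of 4.42 (9 fragments), and in replicate 2 over a noncoding exon with a fold of 3.29 (9 fragments). The 2 peaks were separated by 206 bp. A further intronic peak with a fold of 3.09 was called in replicate 1 only.

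The receptor genes were Htr3a and Erbb4. Htr3a encodes a subunit of the serotonin-gated cation channel, which marks interneurons of the caudal ganglionic eminence, and lies on chromosome 9 at 48899213 to 48911099 on the minus strand. Replicate 2 had a peak over its start, from 48910874 to 48911377, with a fold of 3.94 (interval 2.13 to 6.79) from 11 fragments. Replicate 1 had no peak at Htr3a, and its closest peak, 73.4 kb away with a fold of 7.95, was at the start of Usp28, a ubiquitin protease gene. A peak in replicate 2 only was the pattern of 695 genes (3.17%).

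Erbb4 encodes the receptor tyrosine kinase for neuregulins that migrating and parvalbumin interneurons carry, and lies on chromosome 1 at 68032186 to 69108059 on the minus strand. It was the only gene of the set with overlapping peaks at a start. The stretch at the start, from 69104529 to 69108694, had folds of 8.39 (interval 5.16 to 13.0, 18 fragments) and 10.8 (7.52 to 15.2, 32 fragments). The summits lay 12 bp apart, in the first intron and 216 and 204 bp from an annotated start. The peaks were 4850 and 4443 bp long, longer than 98.8% and 97.2% of the peaks of their libraries.

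A second Erbb4 pair lay in intron 3, from 68466724 to 68467461, about 641 kb into the gene, with folds of 8.39 (interval 5.16 to 13.0) and 10.5 (7.25 to 14.8) and summits 27 bp apart. The lower folds of both pairs ranked at percentile 71.9 of overlapping pairs, with ties given their middle rank. A weaker pair in intron 1, from 69059838 to 69060294, had folds of 5.74 and 5.26, and did not pass the filter. Of the remaining Erbb4 peaks, all intronic, 4 were called in replicate 1 (folds 3.53 to 6.63) and 8 in replicate 2 (folds 3.29 to 4.60), and none met a peak of the other replicate. The fold of 6.63, at a summit of 14 fragments in intron 1, was the only peak above 6 at the 10 genes that the other replicate did not meet.

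Erbb4 and Reln are long genes, with searched regions of 1096 and 480 kb, and a long region holds more peaks by its length alone. Erbb4 had 6.39 and 10.04 peaks per Mb in the 2 replicates and Reln 6.25 and 4.16. All 624 protein-coding genes with regions over 300 kb together had 9.30 and 11.3 per Mb. Of those genes, 80.0% had overlapping peaks, as both Reln and Erbb4 did. The other 8 genes together had 22.7 and 14.2 peaks per Mb, and the regions of all protein-coding genes had 19.7 and 23.8.

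The set held 18 peaks in each Foxr2 p53LOF replicate, with a median fold of 5.30 in replicate 1 (range 3.09 to 10.2) and 4.27 in replicate 2 (3.29 to 11.2). The medians over all peaks in regions of protein-coding genes were 5.74 and 5.26. In each replicate 7 of the 18 peaks (38.9%) overlapped a peak of the other, beside 78.2% and 61.8% of the peaks in all gene regions. The 7 had median folds of 6.19 and 8.21, and the 11 that were not met had 3.98 and 3.61. Introns held 12 of the 18 peaks in replicate 1 and 13 in replicate 2, and Erbb4 alone supplied 7 and 11 of these.

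How often a peak was met by the other replicate rose with its fold in the lists as a whole. Of all peaks with folds of 4 or less, 38.5% were met in replicate 1 and 18.5% in replicate 2, and of peaks with folds over 8 to 12, 99.8% and 99.0%. At the 10 genes, 0 of 6 and 0 of 9 peaks with folds of 4 or less were met, and 3 of 3 and 4 of 4 with folds over 8 to 12. In between, with folds over 4 to 6, 2 of 6 and 2 of 4 were met, beside 77.2% and 54.6%.

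**Figure D3:**
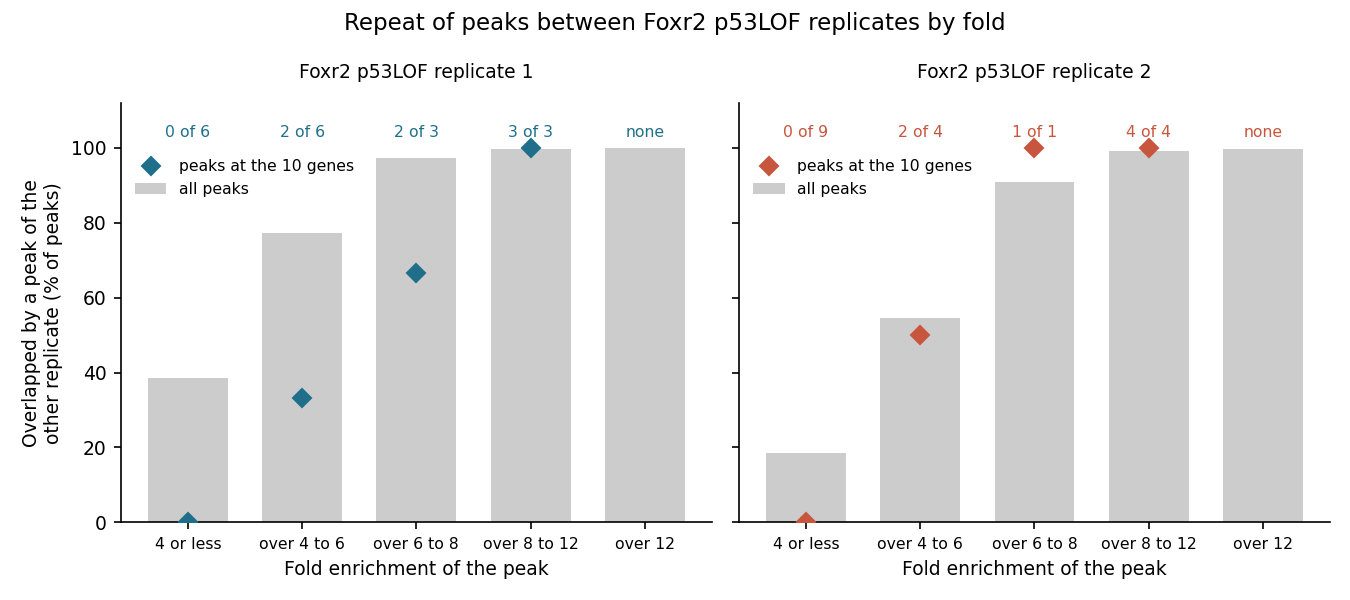
Share of peaks that overlap a peak of the other Foxr2 p53LOF replicate (vertical axis, percent) by fold enrichment. Grey bars are all peaks of the library, diamonds the peaks at the 10 genes, and the counts above give peaks met of peaks present. No peak of the set has a fold over 12, and none with a fold of 4 or less was met.

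Distances were taken from the start of each gene to the closest peak. A peak covered the start of 44.4% of all protein-coding genes in replicate 1 and 46.3% in replicate 2. It did so at Erbb4 in both replicates and at Htr3a in replicate 2. The median distance from start to closest peak was 8.21 and 17.4 kb over the 10 genes, and 0.733 and 0.411 kb over all protein-coding genes. In replicate 1, 8 of the 10 genes lay beyond the median of all genes, and Erbb4 and Reln did not. In replicate 2, 8 of 10 lay beyond it, and Erbb4 and Htr3a did not.

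**Figure D4:**
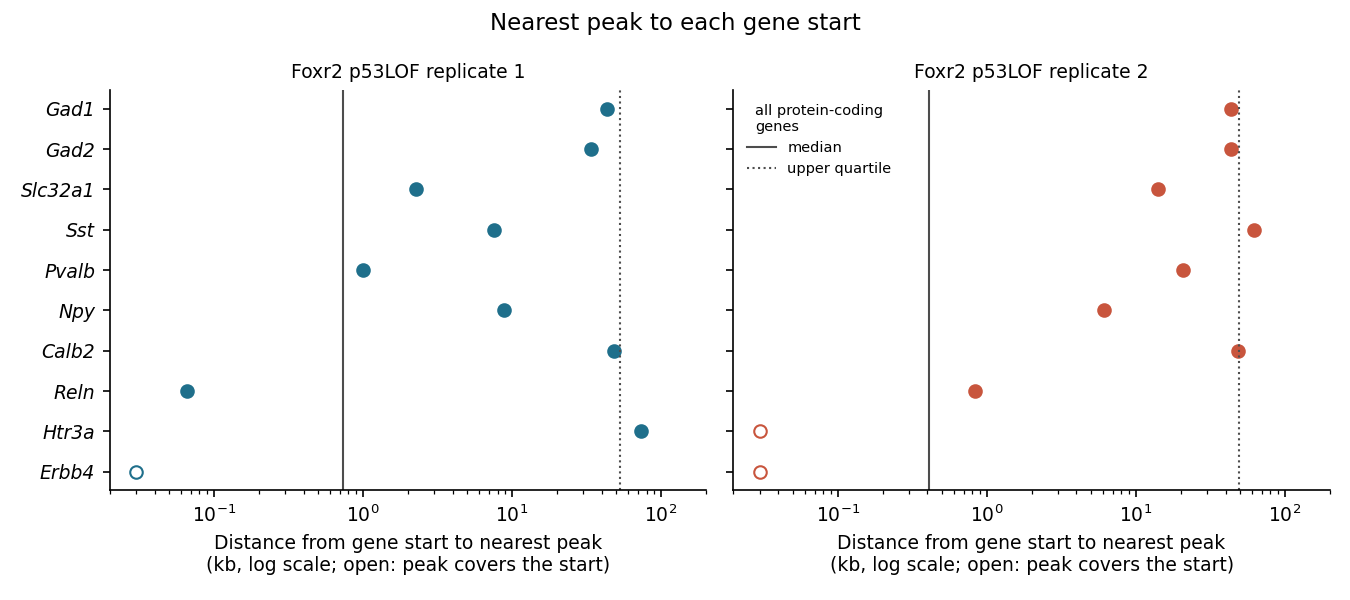
Distance in kb (log axis) from each gene start to the closest peak in replicate 1 (left) and replicate 2 (right). Open points, drawn at the left edge, are starts covered by a peak, and lines give the median and upper quartile over all protein-coding genes. Gad1, Gad2 and Calb2 lie between 33.7 and 48.5 kb in both replicates.

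The 300 bases around the summits had a median GC content of 47.5% in replicate 1 and 38.3% in replicate 2, beside 49% and 47.7% over all peaks. The ETS letters AGGAAG stood in 6 and 4 of the 18 windows, beside 32.9% and 32.8% of all peaks, and CCGGAA in 1 of 18 in each replicate, beside 9.08% and 7.97%. That window with CCGGAA was the one at the Actr5 start in both replicates. The forkhead letters TGTTTAC stood in 0 of 18 windows in each replicate, beside 3.80% and 4.09% of all peaks, and the E-box CACGTG in 0 of 18, beside 5.80% and 5.81%. The SOX letters CATTGT stood in 3 and 4 windows, beside 13.4% and 14.3%. TAATTA stood in 2 windows in each, beside 6.72% and 7.28%.

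Other genes of the same pathways, in lists drawn up with earlier results of these data known, were counted in the same way. In GABA breakdown, transport and the inhibitory synapse, 5 of 10 genes had overlapping peaks, beside the 62.6% of all genes. Among them were Slc38a1, a glutamine transporter, with folds of 14.6 and 21.4 at its own start, and Gphn, the scaffold of inhibitory synapses, with 12.8 and 12.2 at its own start. The highest folds in that list, 36.7 and 45.3 in the region of Nlgn2, lay at the start of Tmem256. Of 16 other interneuron subtype genes, 4 had overlapping peaks and 0 had a pair that passed the filter (50.0% of all genes). The strongest were at Sncg (5.74 and 4.93), Cnr1 (4.86 and 5.26) and Crhbp (4.42 and 5.26), all under the fold of 6. Control replicate 1 had a peak at 1 of these 16, Calb1 (0.524% of all genes).

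The partners of reelin and ERBB4 had overlapping peaks at 8 of 9 genes (62.6% of all genes), 5 of them with pairs that passed the filter (50.0% of all genes). Several of these regions are long, up to 1145 kb. Overlapping peaks were found at 79.0% of all genes with regions of 100 to 300 kb and 80.0% of those over 300 kb. Lrp8, a reelin receptor, had folds of 18.1 and 32.5. Nrg1, a ligand of ERBB4, had 12.8 and 15.4, and in the region of Erbb3, another neuregulin receptor, folds of 11.5 and 13.8 lay at the start of Pa2g4. At Reln and Erbb4 themselves the highest folds were 6.19 and 6.24, and 8.39 and 10.8.

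Among marker genes of interneurons and of other cell types, overlapping peaks were found (62.6% of all genes) at 4 of 7 transcription factor genes of interneurons from the medial ganglionic eminence (MGE), with folds of 18.6 and 24.3 at Sox6 and of 8.84 and 8.54 at Maf. They were found at 3 of 7 glutamatergic neuron genes, where the region of the glutamate transporter gene Slc17a7 had folds of 19.9 and 28.6 at the start of Aldh16a1 and Camk2a had 3.98 and 3.29. They were found at 5 of 5 oligodendrocyte progenitor genes, with the highest folds at Cspg4 (16.8 and 22.0), Sox10 (14.1 and 18.1) and Olig1 (13.3 and 21.0). Within 1 kb of a start, where 50.9% of all genes had overlapping peaks, the count was 1 of 10 in the set and 2 of 16 among the other interneuron subtype genes. For the glutamatergic neuron genes the count was 1 of 7. It was 5 of 10 for GABA handling, 7 of 9 for the partners of reelin and ERBB4, 4 of 7 for the MGE factors and 5 of 5 for the oligodendrocyte progenitor genes. Pairs that passed the filter (50.0% of all genes) were found at 4 of 10 GABA handling genes, 3 of 7 MGE factors, 2 of 7 glutamatergic neuron genes and 5 of 5 oligodendrocyte progenitor genes. These lists were not compared by a test.

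**Figure D5:**
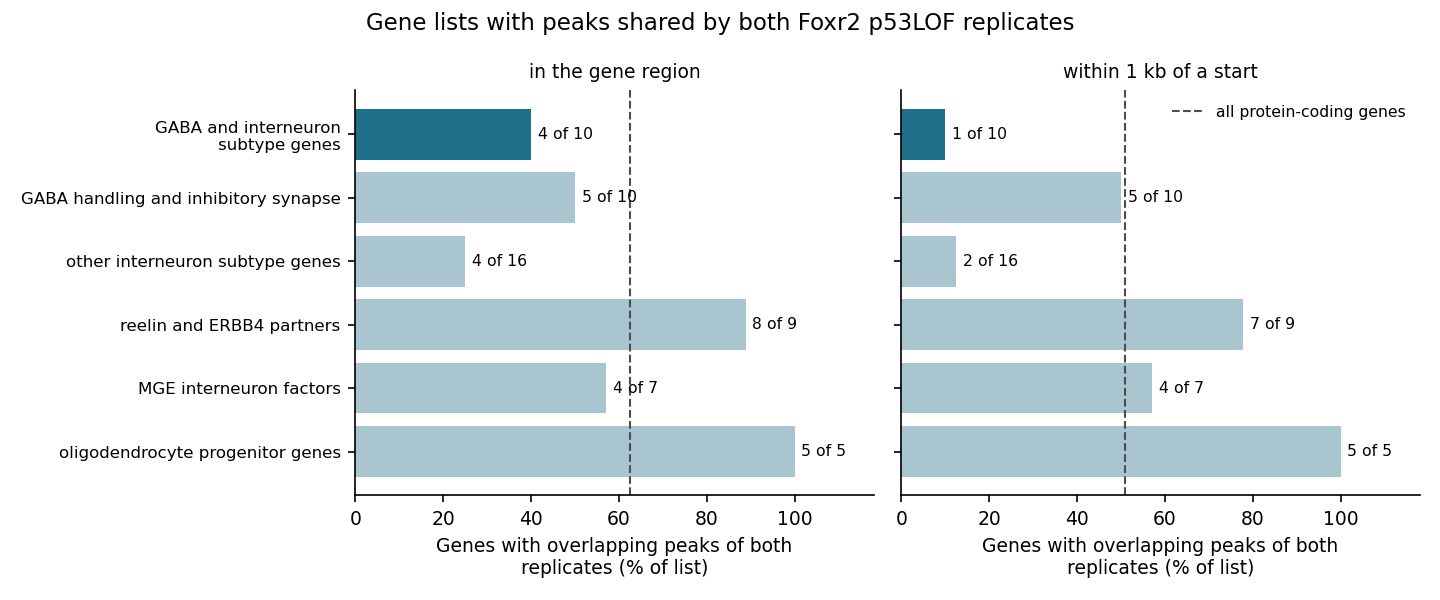
Share of genes (percent) in the set and in 5 further lists with overlapping peaks of both Foxr2 p53LOF replicates, with counts beside the bars. The left panel is the gene region and the right panel within 1 kb of a start. The glutamatergic genes (3 of 7 and 1 of 7) are not drawn. Dashed lines give the share of all protein-coding genes, 62.6% and 50.9%. The 10 genes stand at 4 of 10 and 1 of 10.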

How the data were processed

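The sequencing data were peak lists of 4 CUT&RUN libraries. Per the labels and methods, the authors trimmed reads (Trimmomatic 0.39), aligned them to mm10 (BWA 0.7.17), removed duplicates (Picard 2.26.6), and called peaks (MACS2 2.2.7.1) in each library without pooling (versions from the submitters' processing notes, which also list HOMER 4.11). No input library is named for peak calling. The deposited fold enrichment is a ratio made by the authors at the summit. The deposited p-values and q-values are given as −log10 values by the authors, the deposited score is derived from the q-value, and the last deposited column gives the summit as an offset from the peak start.

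For each library, candidate background levels between 0.3 and 4 (spaced by 0.0005) were tried on peaks with folds up to 30, keeping the level that turned folds into whole fragments with Poisson p-values equal to the authors' p-values. It gave whole fragments (within 0.02, with −log10 p within 0.05) for 99.96%, 99.94%, 93.5% and 91.1% of peaks. The lists show no read totals, so depth is known only through these fragments.

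Genes came from GENCODE release M21, and positions are in GRCm38.p6, counted from 1. Peaks were assigned to a gene if they overlapped its body or 10 kb on either side. The exact permutation test compared the number of the 10 genes with a peak between groups. All 10 genes are named. A neighbour is named where its start lies within 1 kb of a peak of the set, or of the closest peak of a gene without one, and up to 3 genes with overlapping peaks are named per further list. Myo3a, Ift27, Usp28, Calb1, Tmem256, Pa2g4 and Aldh16a1 fall outside that rule and were named after their values were seen. The genes and lists were chosen with earlier results of these data known. Some results for single genes of the further lists are not reported here. Alternatives covered the flank, the start window, the fold and q limits, the overlap, the chromosome level and leaving out each replicate. Background recovery, the counting of peaks in gene regions and the search for overlapping peaks were tested on simulated data. Python 3.11.15, pandas 2.3.3, numpy 2.4.6, scipy 1.17.1, pysam 0.24.0 and matplotlib 3.10.9 were used.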

Additional observations from a re-analysis of the deposited data

How the results depend on the processing

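The number of genes with overlapping peaks, 4 as reported, was 2 with the gene body alone (54.7% of all genes), 7 with a flank of 50 kb (74.7%; Gad1, Gad2 and Calb2 were added) and 1 within 1 kb of a start (50.9%). Within 1 kb of a start, each Foxr2 p53LOF replicate had 3 genes with a peak in place of 6. With a flank of 50 kb, control replicate 1 had 1 gene with a peak, Gad2, in place of 0. With folds above 6 after division by the chromosome level, each Foxr2 p53LOF replicate had 3 genes (Erbb4, Pvalb and Slc32a1), against 52.1% and 53.3% of all genes. With a single Foxr2 p53LOF replicate left, a gene needs a peak in that replicate alone, and the number was 6 to 6. Without any one library, the difference between groups remained 6. Without peaks at starts of other genes, chosen after the data were seen, 6 and 5 genes had a peak (56.7% and 59.4% of all genes) and 3 had overlapping peaks (50.3%). The other alternatives stayed within 1.5 times of the reported counts. Counted in whole peaks in place of 300 bases, AGGAAG was found in 10 of 18 peaks in each replicate, beside 69.5% and 69.4% of all peaks. CCGGAA was found in 2 of 18 in each, beside 27.6% and 25.5%. The SOX letters were found in 5 and 7, beside 40.3% and 43.2%, and TAATTA in 3 and 5, beside 23.1% and 25.7%. TGTTTAC was found in 1 and 2, beside 14.9% and 16.3%, and CACGTG in 1 and 0, beside 19.5% and 19.2%. With the replicate block, chosen after the data were seen, group labels were exchanged within replicate numbers. The mean difference was again 6 genes (two-sided exact permutation p = 0.5, the smallest 2 pairs allow), and the labels do not say what a shared number marks. A called summit needed at least 6, 8, 10 and 7 fragments in the 4 libraries, so weaker binding at Gad1, Gad2 and Calb2 was not detectable at this depth.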
